A study of Mus musculus with 8 samples.

Results

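Interferon-stimulated genes are the antiviral effectors that a cell switches on when interferon binds its receptor, and 52 of them were followed here in mouse thymocytes. They were listed by gene symbol, by a rule that names no measured value, though earlier results of these data were known when the list was made. Each of the 52 was found as 1 gene among the 55359 listed. RNA sequencing measured 8 samples of sorted thymocytes that carried CD4 and CD8 (the double positive, or DP, stage) and had absent to intermediate surface TCR beta, from mice at 5 weeks of age. The 4 Lck-cre samples (replicates 5 to 8, genotype LSL-Sting1-N153S;Lck-cre) carried Cre recombinase under the Lck promoter, whose activity begins in T cell progenitors. The 4 control samples (replicates 1 to 4, genotype LSL-Sting1-N153S/+) had the same allele without Cre. In that allele a stop cassette between loxP sites holds back a Sting1 coding sequence with the N153S substitution, known to make STING signal without its ligand. Replicate 5 of Lck-cre and replicate 1 of the controls were female and the other 3 samples of each group were male. No group analysed here carried Lck-cre alone, so the presence of Cre and the release of the allele cannot be told apart. The sources used here do not say whether the samples are different animals, and the p-values therefore describe sample-to-sample spread, which may be technical.

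STING is the endoplasmic reticulum sensor of cyclic dinucleotides that activates the kinase TBK1 and the factor IRF3, which in turn can induce type I interferon. Interferon acts through the receptor chains IFNAR1 and IFNAR2, the kinases JAK1 and TYK2, and a complex with STAT2 and IRF9 that binds the interferon-stimulated response element in the promoters of its target genes. The products of those genes bind viral RNA, block entry, assembly or release of viruses, and tune the response itself.

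Expression is given as FPKM, fragments scaled by gene length and by the mapped total, as the authors deposited it. The files hold no read counts, so depth is unknown. The coverage per base that stood for 1 FPKM was commonest at 7.65 to 7.86 in the Lck-cre samples and at 7.53 to 7.89 in the controls. Sting1 itself lay at 221, 85.4, 130 and 232 FPKM in Lck-cre replicates 5 to 8, against 15.3, 11.6, 13.4 and 11.9 FPKM in control replicates 1 to 4. The groups did not overlap (log2 change 3.52, SE 0.25, adjusted p = 0.00213 by limma), and an exact permutation test on the difference in means (two-sided) gave p = 0.0286, which is the lower limit for groups of 4. Gene-level FPKM pools the reads of both Sting1 alleles.

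Of the DP thymocyte markers, Cd4, Cd8a, Cd8b1, Rag1 and Cd3e were at 295 FPKM or more in each of the 8 samples. Markers of other cells lay far lower, and some of them moved with the genotype. The 6 macrophage and monocyte markers summed to 7.64 to 12.9 FPKM in Lck-cre and 5.37 to 6.59 FPKM in the controls, nearly all of it Cd68, which rose (adjusted p = 0.0304 by limma). Lyz2 was at 0.297 to 0.951 FPKM in Lck-cre and 0.136 to 0.185 FPKM in the controls, and Csf1r, Adgre1 and Mertk stayed under 0.1 FPKM in every sample. Even so, Csf1r (0.0221 to 0.0626 FPKM in Lck-cre, against 0 to 0.0116 FPKM in the controls) was above every control in all Lck-cre samples. Adgre1 and C1qa were above every control in 3 Lck-cre samples, and Mertk in 2. The plasmacytoid dendritic cell marker Siglech lay at 0.163 to 0.955 FPKM in Lck-cre and at 0.0219 to 0.0770 FPKM in the controls, while Tcf4 and Ccr9 of that list overlapped between the groups and Irf8 rose. The 4 NK cell markers summed to 0.158 to 0.974 FPKM in Lck-cre and 0.00716 to 0.0979 FPKM in the controls. In Lck-cre nearly all of it was Nkg7 (0.144 to 0.961 FPKM, against 0 to 0.0767 FPKM in the controls). Eomes overlapped between the groups, Klrb1c was above 0 only in control replicate 4, and Ncr1 was listed at 0 throughout. The 8 DP markers summed to 3500, 4303, 3750 and 3267 FPKM in Lck-cre replicates 5 to 8 and to 4348 to 4732 FPKM in the controls. Among them Cd4, Rag1 and Rag2 fell (adjusted p = 0.0356, 0.0141 and 0.0157 by limma), while Ptcra, the pre-T cell receptor alpha chain, rose to 42.4 ± 6.34 FPKM in Lck-cre, against 29.9 ± 3.49 FPKM in the controls (SD, n = 4 each; adjusted p = 0.0107 by limma). Of the mature T cell markers, which summed to 60.0 to 70.8 FPKM in Lck-cre, against 69.5 to 72.8 FPKM in the controls, Klf2 rose (8.70 ± 2.59 FPKM in Lck-cre and 4.41 ± 1.63 FPKM in the controls, adjusted p = 0.03004 by limma). The sums of the epithelial list and of the dendritic cell list overlapped between the groups. In these lists Krt8 (0.162 to 0.238 FPKM in Lck-cre, against 0.0378 to 0.110 FPKM in the controls), Aire (0.0994 to 0.465 FPKM, against 0 to 0.0589 FPKM) and Clec9a (0.00773 to 0.163 FPKM, against 0 in each control) were above every control in all Lck-cre samples. Krt8 had an adjusted p of 0.0463 in the limma fit with no FPKM minimum. In bulk samples fewer cells of a type and less RNA per cell cannot be told apart, and the part of other cells in the results below was not tested.

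In DP thymocytes the 52 members spanned a wide range of levels. In the controls the means ran from 149 FPKM for Lgals9, a galectin, to 0.0122 FPKM for Ifi44, with a median of 3.05 FPKM. Genes at 1 FPKM or more in at least 4 samples were tested, and 36 members met that minimum while 16 did not. Each tested member reached 1 FPKM in at least 1 control. For Ifitm3 and Rsad2 it was only 1 control, for Ifih1 and Oasl1 2, and for Cmpk2 3. These genes therefore met the minimum with the help of Lck-cre samples. Genes were compared on log2(FPKM + 0.5) with limma, with a term for sex, and called at a Benjamini-Hochberg adjusted p under 0.05 over the 12337 genes tested. The fold changes quoted are ratios of mean FPKM, and log2 changes understate those of low genes.

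Of the 36 tested members, 8 rose in Lck-cre thymocytes and 0 fell by limma. Of all tested genes 15.4% rose and 10.4% fell, so the 22.2% of tested members that rose is not far above the background. At an unadjusted p under 0.05, 19 tested members (52.8%) were higher, against 23.4% of all tested genes, and 1, Helz2, was lower, against 18%. With TPM in place of FPKM, 7 tested members rose (background 10.5%) and 1 fell, and over all genes 1300 rose and 2067 fell, where FPKM gave 1901 that rose and 1279 that fell. The sign of the log2 change was positive in 31 of the 36, and in 6421 of all 12337 tested genes. Their median log2 change was 0.33, against 0.01 over all tested genes. The mean was higher in Lck-cre in 47 of the 52 members, the 16 below the minimum included. The share of all genes with a higher mean was not computed, either for tested genes or for those below the minimum.

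**Figure D1:**
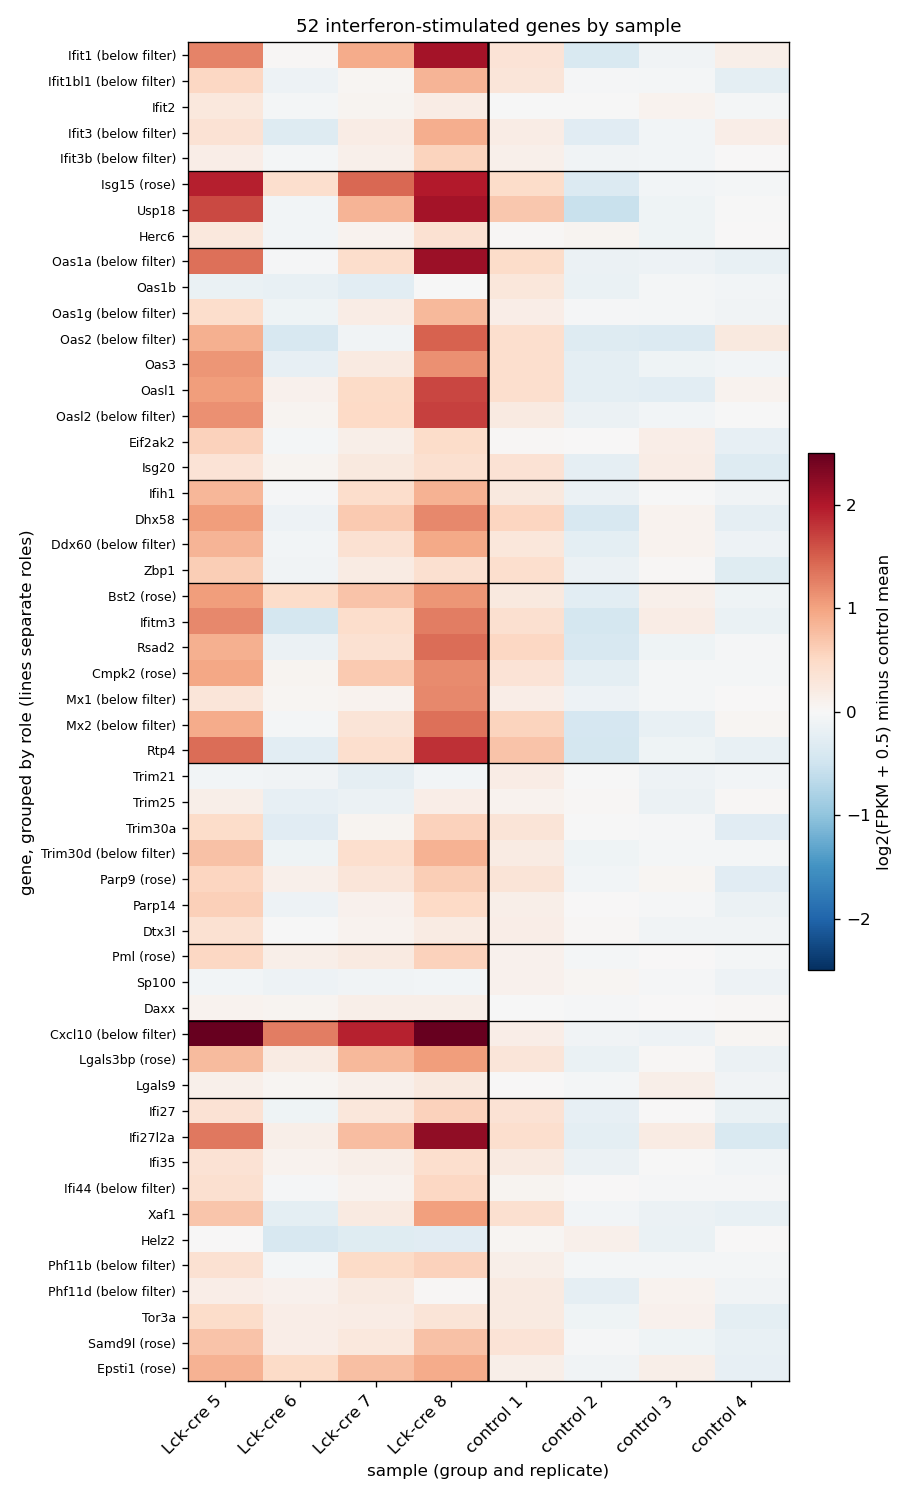
Difference of log2(FPKM + 0.5) from the control mean for the 52 interferon-stimulated genes (rows, grouped by role) in each sample (columns, Lck-cre left and control right); genes that rose by limma and genes below the FPKM minimum are marked. Lck-cre replicates 5 and 8 are high in most rows, replicate 6 lies near the controls, and colours are capped at 2.5.

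The sequences before the transcription starts show what several members share apart from their names. RefSeq promoter windows (GRCm38.p6, 250 bases before to 50 after each start) were at hand for 39 of the 52 members. The letters GAAA, any 2 bases and GAAA again, a form of the interferon-stimulated response element, were present on either strand in 20 of these 39 (51.3%), against 3.99% of the 27025 genes in that collection. Among tested members with a window 10 of 26 held them, among members that rose 2 of 7, and among members below the FPKM minimum 10 of 13. The letters TTCNNNGAA, a form of the gamma-activated site, were in 7 of 39 members (17.9%) and in 9.55% of all genes. Matches can overlap one another, genes with several starts were counted once, and a match is a run of letters, not a shown binding site. The stretches that follow belong to the members that rose and had a match upstream of the start (Isg15 and Bst2), to the member with the highest fold (Cxcl10), and to the pair Ifit3 and Ifit3b, whose RNA cannot be told apart well. They read 5′ to 3′ on the strand of the gene, and capitals mark the matches to that form or its reverse complement.
Isg15, chr4:156200845-156200964, minus strand: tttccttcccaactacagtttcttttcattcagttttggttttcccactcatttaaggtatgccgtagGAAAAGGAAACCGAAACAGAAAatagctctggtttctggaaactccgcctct
Bst2, chr8:71537557-71537676, minus strand: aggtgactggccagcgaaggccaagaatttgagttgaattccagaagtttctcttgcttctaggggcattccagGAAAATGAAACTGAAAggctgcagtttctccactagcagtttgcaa
Cxcl10, chr5:92349063-92349139, minus strand: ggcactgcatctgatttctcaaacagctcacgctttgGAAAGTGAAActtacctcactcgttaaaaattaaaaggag
Ifit3, chr19:34583327-34583446, plus strand: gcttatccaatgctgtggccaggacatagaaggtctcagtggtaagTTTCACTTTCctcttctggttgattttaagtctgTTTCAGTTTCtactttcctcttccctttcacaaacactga
Ifit3b, chr19:34607723-34607842, plus strand: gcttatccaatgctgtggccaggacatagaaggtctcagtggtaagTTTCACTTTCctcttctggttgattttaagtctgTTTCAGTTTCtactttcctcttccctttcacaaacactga
Isg15 had 3 overlapping matches and Bst2 had 2, in a single run each. The stretches of Ifit3 and Ifit3b were identical in 120 of 120 bases.

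ISG15 is a ubiquitin-like protein that is attached to other proteins, USP18 removes it and also restrains the interferon receptor, and HERC6 is an ISG15 ligase in mice. Isg15 rose in Lck-cre thymocytes. It lay at 23.7, 7.92, 16.6 and 24.7 FPKM in Lck-cre replicates 5 to 8, against 8.19, 4.52, 5.54 and 5.58 FPKM in control replicates 1 to 4. Replicate 6 fell inside the control range and the other Lck-cre samples lay above it. The ratio of means was 3.06 (log2 change 1.44, SE 0.28, interval at 95% confidence from 0.82 to 2.07, adjusted p = 0.0107 by limma). Isg15 is listed on chromosome 4 from 156283912 to 156285253, in a build that the files do not name. Usp18 averaged 9.56 ± 5.73 FPKM in Lck-cre and 3.68 ± 1.54 FPKM in the controls (SD, n = 4 each), a ratio of 2.60 that missed the threshold (log2 change 1.13, SE 0.38, adjusted p = 0.0545 by limma). Usp18 overlaps a predicted gene on the opposite strand, and whether reads were counted by strand is not stated. Herc6 averaged 7.11 ± 1.02 FPKM in Lck-cre and 6.24 ± 0.35 FPKM in the controls, with a log2 change of 0.17 (adjusted p = 0.253 by limma).

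The membrane, GTPase and nucleotide effectors had 2 of 5 tested members that rose, where 15.4% of all tested genes rose. Bst2 encodes tetherin, which holds budding virus particles at the cell surface, and it had 62.5, 41.3, 49.6 and 65.6 FPKM in Lck-cre, against 35.9, 25.1, 32.7 and 27.7 FPKM in the controls. Its groups did not overlap (ratio of means 1.80, log2 change 0.83, SE 0.14, adjusted p = 0.00798 by limma). Bst2 is also a marker of plasmacytoid dendritic cells. Siglech, another of their markers, stayed under 1 FPKM in each sample but was above every control in all Lck-cre samples (0.163 to 0.955 FPKM, against 0.0219 to 0.0770 FPKM). Of the same list Irf8 rose, while Tcf4 and Ccr9 overlapped between the groups. The part of such cells in the Bst2 level was not tested. Cmpk2, a mitochondrial nucleotide kinase, had 2.70, 1.21, 2.06 and 3.22 FPKM in Lck-cre, against 1.56, 0.878, 1.07 and 1.09 FPKM in the controls (log2 change 0.72, SE 0.21, adjusted p = 0.0364 by limma). Lck-cre replicate 6 again lay within the control range. Its neighbour on chromosome 12, Rsad2, which encodes the nucleotide-modifying enzyme viperin, averaged 1.53 ± 0.91 FPKM in Lck-cre and 0.752 ± 0.354 FPKM in the controls (SD, n = 4 each; adjusted p = 0.133 by limma). Rtp4 and Ifitm3, whose product hinders fusion of viral and cell membranes, had ratios of 2.19 and 2.13 with adjusted p of 0.114 and 0.172 by limma. The dynamin-like GTPases Mx1 and Mx2 were below the FPKM minimum, with at most 0.811 FPKM for Mx1 and 2.19 FPKM for Mx2, both in Lck-cre replicate 8.

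Among secreted proteins, Lgals3bp rose and Cxcl10 was the member with the highest ratio. Lgals3bp, a secreted glycoprotein that binds galectin 3, had 42.5, 27.9, 43.0 and 50.7 FPKM in Lck-cre, against 29.8, 21.4, 24.8 and 21.8 FPKM in the controls (ratio 1.68, log2 change 0.71, SE 0.16, adjusted p = 0.0168 by limma). Replicate 6 lay below the highest control, replicate 1. Cxcl10, a chemokine that draws T and NK cells through CXCR3, was below the FPKM minimum and had 7.09, 0.907, 1.71 and 6.65 FPKM in Lck-cre, against 0.156, 0.0468, 0.0334 and 0.101 FPKM in the controls. Every Lck-cre sample, replicate 6 included, lay above every control, and the ratio of means was 48.5. Its coverage per base was 5.63 to 38.5 in Lck-cre, against 0.261 to 1.03 in the controls, so the lower level rests on few fragments. In a limma fit with no FPKM minimum the log2 change was 2.63 (SE 0.52, adjusted p = 0.0494), while 2.41% of the 28851 genes of that fit rose and 1.25% fell. Lgals9 averaged 164 ± 9.38 FPKM in Lck-cre and 149 ± 11.05 FPKM in the controls (SD, n = 4 each; adjusted p = 0.204 by limma).

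Epsti1 and Samd9l rose among the remaining interferon-induced genes, 2 of 8 tested, where 15.4% of all tested genes rose. Epsti1 had 113, 85.7, 104 and 116 FPKM in Lck-cre, against 67.3, 57.7, 67.6 and 53.0 FPKM in the controls. The groups were well apart, and its adjusted p of 0.00750 by limma was the smallest of the tested members (ratio 1.70, log2 change 0.76, SE 0.11). Samd9l, a restriction factor of poxviruses, had 16.3, 10.98, 11.8 and 16.5 FPKM in Lck-cre, against 12.4, 9.49, 8.98 and 8.53 FPKM in the controls (log2 change 0.47, SE 0.12, adjusted p = 0.0230 by limma). Replicates 6 and 7 lay below control replicate 1. Ifi27l2a averaged 8.19 ± 5.40 FPKM in Lck-cre and 3.08 ± 0.92 FPKM in the controls (SD, n = 4 each), a ratio of 2.66 with an adjusted p of 0.0558 by limma. Helz2, a helicase and nuclear receptor co-activator, had the lowest log2 change of the tested members at -0.25, with 20.9 ± 2.73 FPKM in Lck-cre and 24.8 ± 2.10 FPKM in the controls (adjusted p = 0.0573 by limma). Of the others in this group, Ifi27, Ifi35, Xaf1 and Tor3a had ratios of 1.22, 1.20, 1.46 and 1.27 and were not called.

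Pml rose among the 3 genes of PML nuclear bodies, the nuclear domains that silence viral genomes, where 15.4% of all tested genes rose. Pml had 28.7, 22.1, 23.2 and 29.96 FPKM in Lck-cre, against 21.3, 19.1, 20.01 and 19.1 FPKM in the controls, with no overlap (ratio 1.31, log2 change 0.37, SE 0.09, adjusted p = 0.0227 by limma). Daxx, a histone chaperone of these bodies, also did not overlap, but its log2 change of 0.11 had an adjusted p of 0.146 by limma. Sp100 averaged 81.7 ± 1.76 FPKM in Lck-cre and 87.1 ± 6.44 FPKM in the controls, with a log2 change of -0.09 (adjusted p = 0.303 by limma). Counting Pml, Daxx, Bst2 and Epsti1, 4 of the 36 tested members (11.1%) were above every control in all Lck-cre samples, against 17.1% of all tested genes, and 0 were below every control, against 12.3%.

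Among the TRIM and PARP enzymes, 1 of 6 tested members rose, which is close to the 15.4% of all tested genes. Parp9, which works with the ubiquitin ligase DTX3L, had 15.8, 11.8, 13.4 and 16.7 FPKM in Lck-cre, against 13.6, 10.2, 11.1 and 8.73 FPKM in the controls (log2 change 0.39, SE 0.12, adjusted p = 0.0418 by limma). Lck-cre replicates 6 and 7 lay below control replicate 1, and the call ended with TPM values (adjusted p = 0.0676) or without the sex term (0.0645). Parp9 and Dtx3l overlap by 682 bases on opposite strands, so that reads there may be shared. Dtx3l had a log2 change of 0.17 (adjusted p = 0.0939 by limma), and Parp14, a mono-ADP-ribosyltransferase, one of 0.27 (adjusted p = 0.161 by limma). Trim25, a ligase of the RNA sensor RIG-I, had 27.6 ± 3.67 FPKM in Lck-cre and 27.6 ± 1.86 FPKM in the controls (SD, n = 4 each), with a 95% confidence interval of the log2 change from -0.21 to 0.19. Trim30a had a ratio of 1.19 (adjusted p = 0.371 by limma). Trim21, an antibody receptor of the cytosol, had a log2 change of -0.11 (adjusted p = 0.260 by limma).

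**Figure D2:**
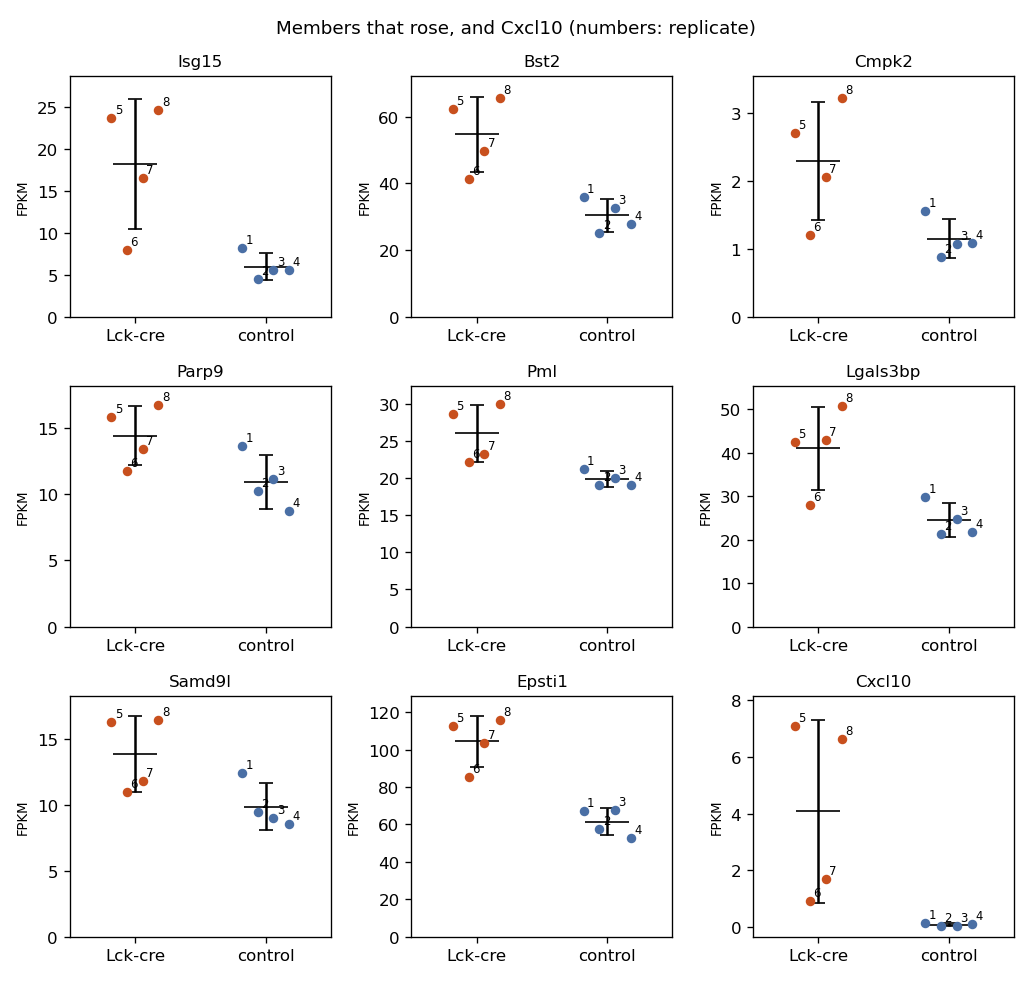
FPKM (vertical axes, each including 0) of the 8 members that rose and of Cxcl10 in Lck-cre (left, orange) and control (right, blue) samples; points are samples with replicate numbers, bars are the mean ± SD of 4. Lck-cre replicate 6 is the lowest of its group in each panel, at 7.92 FPKM for Isg15 beside a control maximum of 8.19 FPKM.

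The RNA-binding IFIT proteins, the oligoadenylate synthetases that start RNA decay through RNase L, and the sensors of viral nucleic acid had no called member. Of the 5 Ifit genes, which lie together on chromosome 19, only Ifit2 met the FPKM minimum, at 12.6, 10.03, 10.95 and 11.9 FPKM in Lck-cre, against 10.2, 10.3, 11.03 and 9.97 FPKM in the controls (log2 change 0.12, SE 0.08, adjusted p = 0.290 by limma). Ifit1 had 1.61, 0.414, 1.21 and 3.29 FPKM in Lck-cre, against 0.627, 0.187, 0.338 and 0.482 FPKM in the controls. Ifit2 lay above every control in 2 of 4 Lck-cre samples (replicates 5 and 8) and Ifit1 in 3 of 4 (all but replicate 6). Ifit3 averaged 0.781 ± 0.455 FPKM in Lck-cre and 0.515 ± 0.155 FPKM in the controls, and Ifit3b 0.152 ± 0.121 and 0.0617 ± 0.0383 FPKM (SD, n = 4 each). Of the runs of 50 bases in their annotated transcripts, 51.2% of those of Ifit3 and 45% of those of Ifit3b were shared with another gene, so the division of reads between them is uncertain.

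Oasl1, which in mice restrains the translation of Irf7, had the smallest p of the synthetase group, with 2.46, 1.05, 1.51 and 4.07 FPKM in Lck-cre, against 1.42, 0.717, 0.702 and 1.02 FPKM in the controls (log2 change 0.83, SE 0.29, adjusted p = 0.0650 by limma). Oas3 had a ratio of 1.79 (adjusted p = 0.113 by limma), and Oas1b a ratio of 0.883 (adjusted p = 0.266 by limma). Oas1a, Oas1g, Oas2 and Oasl2 were below the FPKM minimum, with ratios of 3.70, 3.01, 2.16 and 5.76, and 57.6% of the 50-base runs of Oas1a were shared with Oas1g. Eif2ak2, the kinase PKR that stops translation on double-stranded RNA, had a ratio of 1.26, and the exonuclease gene Isg20 one of 1.21, with adjusted p of 0.143 and 0.169 by limma. Ifih1, the RNA sensor MDA5, had 2.27, 1.02, 1.60 and 2.33 FPKM in Lck-cre, against 1.34, 0.910, 1.04 and 0.955 FPKM in the controls (log2 change 0.53, SE 0.18, adjusted p = 0.0569 by limma). In each of these genes Lck-cre replicate 6 lay within or below the control range. Dhx58, the regulatory RNA helicase LGP2, and Zbp1, a sensor of nucleic acid in the Z form, had ratios of 1.82 and 1.22 and adjusted p of 0.0676 and 0.101 by limma.

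The 16 members below the FPKM minimum had higher means in Lck-cre in 16 cases, and in the 14 with no control at 0 the ratio of means was 1.30 to 48.5 with a median of 2.32. The median ratio of the tested members was 1.29. Cxcl10 was the 1 of the 16 whose groups did not overlap, or whose adjusted p was under 0.05 in the fit with no minimum. Of genes below the minimum but above 0 in some sample, 2.99% were above every control in all Lck-cre samples and 3.49% were below. Ifi44 was listed at 0 in Lck-cre replicate 6 and control replicates 3 and 4, and Phf11b in Lck-cre replicate 6 and control replicates 2, 3 and 4. Trim30d, Ddx60, Ifit1bl1 and Phf11d, also below the minimum, had ratios of 1.81, 2.03, 1.70 and 1.30. Among tested members, the 20 with a control mean under 10 FPKM had a median log2 change of 0.55, and the 16 at 10 FPKM or more one of 0.21. The control mean is also the baseline of the log2 change, and no value over all genes was computed for this split. The lower set also holds genes that met the minimum with the help of Lck-cre samples. The difference between the 2 sets therefore cannot be read as an effect of level.

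The samples of the Lck-cre group differed from each other in these genes more than the controls did. Replicate 8 was the highest Lck-cre sample in 40 of the 52 members and replicate 5 in 10, while replicate 6 was the lowest in 49. Among all tested genes replicate 8 was the highest of its group in 28.1% and replicate 5 in 21.1%, and replicate 6 was the lowest in 29%. Replicates 5, 6, 7 and 8 lay above every control in 45, 5, 23 and 46 members, and replicate 6 was within the control range in 37. Of the tested members 83.3%, 11.1%, 38.9% and 86.1% lay above every control in these replicates, against 32.4%, 27.7%, 36.3% and 35.2% of all tested genes. Replicate 6 was within the control range in 26 of the 36 tested members, against 6081 of all 12337 tested genes. In 10 of the 36 tested members (27.8%) replicates 5, 7 and 8 were above every control and replicate 6 was not, against 4.96% of all tested genes. The median difference from the control mean over the 52 members was 0.59, -0.05, 0.23 and 0.82 (log2) in replicates 5 to 8, whereas over all tested genes it was 0.01 to 0.02. The SD of log2 values was larger in Lck-cre than in control in 28 of the 36 tested members (77.8%), against 53.1% of all tested genes.

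The order of the Lck-cre samples followed their Sting1 levels in most members. Replicates 8, 5, 7 and 6 had 232, 221, 130 and 85.4 FPKM of Sting1, and 36 of the 52 members had their values in that same order. Among tested members it was 23 of 36 (63.9%), against 8.41% of all tested genes. With 4 samples no correlation was computed. The summed DP markers ran the other way, from 3267 FPKM in replicate 8 to 4303 FPKM in replicate 6. Some markers of other cells had the same order as Sting1. Under 1 FPKM these included Siglech (0.955, 0.789, 0.464 and 0.163 FPKM in replicates 8, 5, 7 and 6), C1qa and Itgax. Above 1 FPKM they included Cd68 (11.4, 7.93, 7.55 and 7.15 FPKM in replicates 8, 5, 7 and 6) and Irf8 (3.75, 3.20, 2.93 and 2.58 FPKM), which both rose. Others, such as Lyz2 and Nkg7, did not. The part of Sting1, of the DP markers or of other cells in the members' levels was not tested.

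**Figure D3:**
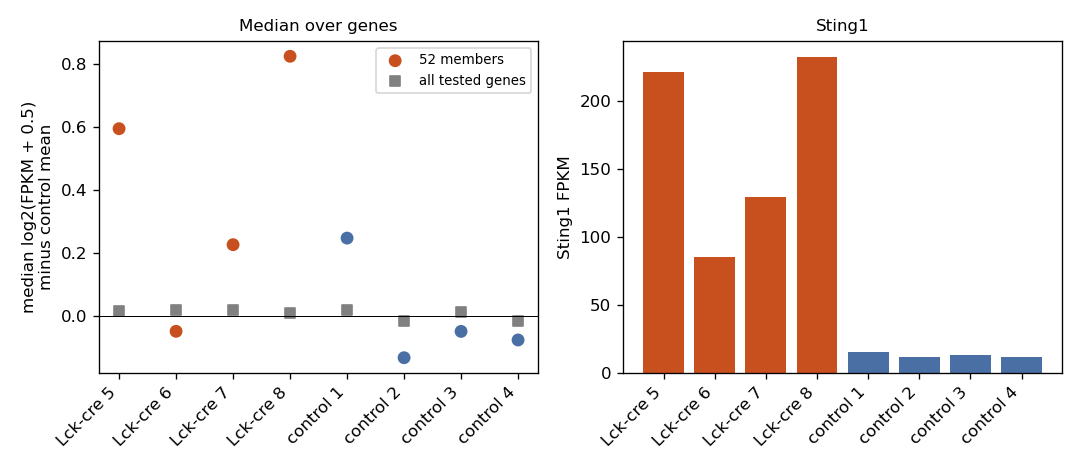
Left, median over genes of log2(FPKM + 0.5) minus the control mean, for the 52 members (circles, orange Lck-cre, blue control) and all tested genes (grey squares) in each sample; right, Sting1 FPKM as bars from 0. Members stood at 0.82 in Lck-cre replicate 8 and -0.05 in replicate 6, which had 232 and 85.4 FPKM of Sting1, while all tested genes stayed near 0.

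Among the controls, replicate 1 was the highest in 45 of the 52 members, against 31% of all tested genes, with a median difference of 0.25 (log2) from the control mean. The other controls had medians of -0.13, -0.05 and -0.08. Replicate 1 was the 1 female among the controls, so sex and sample cannot be told apart there. Between males alone, replicates 6 to 8 against 2 to 4, 2 tested members rose, Bst2 and Epsti1, while 3.44% of all tested genes rose, and the median log2 change of the tested members was 0.37.

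The number of members that rose hung on single samples. Without Lck-cre replicate 6, 24 of the 36 tested members (66.7%) rose and 0 fell by limma, while 18% of all tested genes rose. The 16 added were Usp18, Oas3, Oasl1, Eif2ak2, Ifih1, Dhx58, Zbp1, Ifitm3, Rsad2, Rtp4, Parp14, Dtx3l, Ifi27, Ifi27l2a, Ifi35 and Xaf1, with Usp18 at a log2 change of 1.48 (SE 0.29, adjusted p = 0.00764 by limma). Oasl1, Ifih1, Ifitm3 and Rsad2 among them had met the FPKM minimum with the help of Lck-cre samples. Replicate 6 is labelled as the others are and its Sting1 level was above every control, so there is no ground in the labels for leaving it out. Without Lck-cre replicates 5, 7 or 8 the count of members that rose was 2, 6 or 7, while 3.4%, 9.14% or 10.6% of all tested genes rose. Without control replicates 1 to 4 it was 2, 3, 7 or 4, while 3.46%, 6.9%, 15.4% or 10.6% of all tested genes rose. Bst2 and Epsti1 rose in each of these 8 fits. With either female left out (Lck-cre replicate 5 or control replicate 1), the sex term took up the remaining female. The log2 changes were then those of males alone (1.43 for Isg15 in each case). Those fits and the males-only fit are therefore the same comparison and not separate checks. The call of Isg15 ended without Lck-cre replicate 5 or control replicate 1 (adjusted p = 0.0506 and 0.0502 by limma), and so did those of Lgals3bp, Pml and Samd9l (0.0518 to 0.0866). Lgals3bp, Pml and Samd9l also lost theirs without control replicate 2 (0.0545 to 0.0655), and Pml and Samd9l without control replicate 4 (0.0530 and 0.0581). Cmpk2 and Parp9 kept theirs only without Lck-cre replicate 6 and, for Parp9, without control replicate 3. With no FPKM minimum Bst2, Epsti1 and Cxcl10 rose and the other 6 calls ended.

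**Figure D4:**
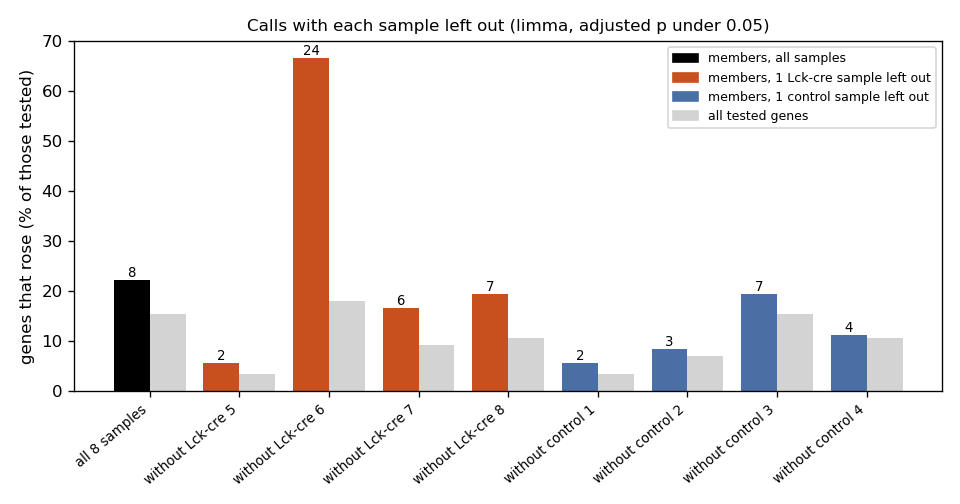
Share of tested genes that rose in Lck-cre (limma, adjusted p under 0.05), for the 36 tested members (dark and coloured bars, with their number on top) and for all tested genes (grey), with all 8 samples and with each sample left out. The members' share is 66.7% without Lck-cre replicate 6, against 22.2% with all samples. The bars without Lck-cre replicate 5 and without control replicate 1 both rest on the comparison of males.

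Of 37 genes of interferon signalling, 25 were tested, of which 5 rose and 2 fell, with a median log2 change of -0.05. Over all tested genes 25.8% were called, 15.4% as higher and 10.4% as lower, so 7 calls in 25 are close to that background. Of the list, 9 genes stood at 0 in every one of the 8 samples. They include Ifnb1 (interferon beta), which the naming rule asked for, and Ifng and the interferon alpha genes Ifna1, Ifna2, Ifna4 and Ifnab. Of the receptor and kinase genes Ifnar2 rose and Jak1 fell, and Ifnar1, Ifngr1, Ifngr2, Il10rb, Jak2 and Tyk2 were not called. Ifnar2 rose to 25.4 ± 2.27 FPKM in Lck-cre, against 20.7 ± 0.391 FPKM in the controls (log2 change 0.28, adjusted p = 0.0248 by limma). Ifnar1 had 38.3 ± 3.11 FPKM in Lck-cre and 43.9 ± 3.26 FPKM in the controls (log2 change -0.19, adjusted p = 0.0791 by limma). Jak1 fell to 77.7 ± 7.35 FPKM in Lck-cre, against 93.9 ± 5.32 FPKM in the controls (log2 change -0.27, SE 0.08, adjusted p = 0.0326 by limma; SD, n = 4 each).

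Irf9 and Stat2, genes of the complex that binds the response element, were not called. Irf9 had a log2 change of 0.22 (adjusted p = 0.240 by limma) and Stat2 one of -0.21 (adjusted p = 0.106 by limma). Irf7, itself an interferon target that drives interferon genes, had 8.80, 4.45, 6.59 and 9.69 FPKM in Lck-cre, against 7.02, 3.73, 4.64 and 4.23 FPKM in the controls (log2 change 0.53, adjusted p = 0.0747 by limma). Replicates 5 and 8 were the highest and replicate 6 the lowest of the Lck-cre samples in Irf7, which passed without replicate 6 (adjusted p = 0.0142 by limma).

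Irf1, Irf8, Cgas and Sting1 also rose, and Irf3 fell. Irf1, a factor induced by interferon gamma among other signals, had 72.8, 45.7, 47.2 and 71.6 FPKM in Lck-cre, against 35.6, 25.5, 31.8 and 51.8 FPKM in the controls (log2 change 0.72, SE 0.22, adjusted p = 0.0415 by limma). Replicates 6 and 7 lay below control replicate 4, and the call ended with TPM values (adjusted p = 0.0574) or quantile normalization (0.0526). Irf8, a factor of myeloid and dendritic cells, had 3.20, 2.58, 2.93 and 3.75 FPKM in Lck-cre, against 1.83, 1.57, 1.76 and 2.42 FPKM in the controls, with no overlap (adjusted p = 0.0194 by limma). Cgas, the DNA sensor ahead of STING, had a log2 change of 0.98 (SE 0.21, adjusted p = 0.0138 by limma), and Irf3 one of -0.24 (SE 0.08, adjusted p = 0.0474 by limma). The calls of Cgas and Irf8 ended without either female (adjusted p of 0.0637 to 0.0769 by limma), and that of Irf8 also without control replicate 2 (0.0621). Those of Ifnar2, Jak1, Irf1 and Irf3 ended without either female (0.1002 to 0.174). They also ended without Lck-cre replicate 8 (0.0589 to 0.107) and without control replicate 2 (0.0702 to 0.114). Without Lck-cre replicate 7 Ifnar2, Irf1 and Irf3 lost theirs (0.0583 to 0.0888), without control replicate 3 Irf1 and Irf3 (0.0807 and 0.0682), and without control replicate 4 Jak1 and Irf3 (0.0671 and 0.0765). With TPM values Ifnar2 was not called (0.0675).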

How the data were processed

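Per the labels, total RNA came from sorted thymocytes. Per the submitters' processing notes HISAT and Bowtie2 were used. Not given in the sources used here are their versions and roles, the quantifier, the build, the annotation and the strandedness. Per the file headers, the authors deposited FPKM, TPM and coverage per base. Entries that shared a gene ID were summed. Each sample's group came from its label.

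FPKM was tested with limma 3.58.1 in R 4.3.3 on log2(FPKM + 0.5), with sex and genotype as terms and empirical Bayes with a trend, for genes at 1 FPKM or more in at least 4 samples. Tests were two-sided. Other steps used SciPy 1.17.1 and NumPy 2.4.6 in Python 3.11.15. The fit was also run on data simulated from its own model, with independent values for each gene and sample. That run cannot show how the fit handles differences that many genes of a sample share. Members and lists were chosen with earlier results of these data known. Members given in full were those called, the one with the smallest p of each role with no call, and those below the minimum whose groups did not overlap. Usp18, Ifit1 and others were added after their values were seen. Alternatives were quantile and median-of-ratios scaling, TPM, pseudocounts of 0.1 and 1, other FPKM minimums, males only, a fit without the sex term, leaving out each sample, an adjusted p under 0.01, and limma's treat for a fold of 1.5. Promoter sequences are RefSeq's. Some genes of the signalling and marker lists are not reported here by name.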

Additional observations from a re-analysis of the deposited data

Results flagged for a closer look

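Jak1 in Lck-cre replicate 8 stood apart from the other samples of its group, at 66.8 FPKM against 79.9 to 82.4 FPKM. This was the 1 case in 50 groups of 4 samples examined (25 named genes in each genotype), and chance flags about 1 group in 20. The call of Jak1 ended without that sample (adjusted p = 0.0601 by limma).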

How the results depend on the processing

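The 8 members that rose became 3 with no FPKM minimum, 2 with males alone, 2 at an adjusted p under 0.01, 0 with treat, and 2 to 24 with 1 sample left out. The 0 that fell became 1 (Helz2) with quantile normalization or TPM, and 0 to 1 with 1 sample left out. Signalling genes that rose, 5 at first, were 3 with TPM, 1 with no minimum, males alone, 0.01 or treat, and 1 to 7 with 1 sample left out. The 2 that fell became 4 with quantile normalization, 7 with TPM, 0 with no minimum, males alone, 0.01 or treat, and 0 to 5 with 1 sample left out. Over all genes, the 1901 that rose became 696, 425, 384 and 1 with no minimum, males alone, 0.01 and treat, and 419 to 2215 with 1 sample left out. The 1279 that fell became 2067 with TPM, 360, 227, 128 and 1 in the same 4 settings, and 226 to 1674. Sting1 kept its call throughout (log2 change 3.27 to 3.78). Of the genes given by the naming rule none changed sign in these settings; of the other tested members Trim25, with a log2 change of -0.01, did without Lck-cre replicates 6 or 7 or control replicates 2 or 4. No paired analysis was possible because the groups share no replicate numbers. Without counts, the precision of levels under 1 FPKM is unknown.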
